A study of Homo sapiens with 6 samples.

Results

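A set of 10 genes of serine synthesis and of folate-bound carbon transfer was followed by symbol in RNA sequencing counts of the small cell lung cancer line NCI-H69: PHGDH, PSAT1, PSPH, SHMT1, SHMT2, MTHFD1, MTHFD2, MTHFD1L, ALDH1L2 and SLC25A32. All 10 symbols matched 1 gene each among the 60671 gene rows, and all 10 passed the filter on low counts. Treated cells had received GNF5, an allosteric inhibitor of the ABL kinases, for 48 h (3 libraries), and the control cells had received the vehicle DMSO for 48 h (3 libraries). The labels give the dose as 20 µM per sample and in millimolar in the protocol text, and the conflict is unresolved. Both groups are the same established neuroendocrine line with a genotype labelled WT, so the values describe 1 line. The labels do not say whether the 3 libraries of a group were grown separately, and the p-values cover only the spread between them, which may be technical.

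The pathway makes serine from an intermediate of glycolysis and then moves a single carbon from serine onto folate. PHGDH, PSAT1 and PSPH carry out the consecutive steps of serine synthesis. In mitochondria SHMT2, MTHFD2 and MTHFD1L pass the carbon on until it leaves as formate, ALDH1L2 burns it to carbon dioxide, and the cytosolic enzymes SHMT1 and MTHFD1 run the matching reactions outside the organelle, where purines and thymidylate are built. The stress factor ATF4 and factors of the MYC family are known to drive many of these genes, and proliferating tumour cells commonly express the mitochondrial enzymes strongly.

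With GNF5, the 3 serine synthesis genes and the 4 mitochondrial folate enzyme genes of the set were higher, whereas its 2 cytosolic folate genes were lower. This describes the chosen genes only: MTHFD2L, the isozyme of MTHFD2 outside the set, fell, and other genes of the pathway went both ways. ALDH1L2 rose 8.05-fold, MTHFD1L 2.70-fold and PSAT1 1.85-fold, while SHMT1 fell to 28.1 ± 0.702 counts per 1000000 counts (CPM) in GNF5 cells, against 44.1 ± 0.694 CPM in DMSO cells (SD, n = 3 each). By edgeR's quasi-likelihood test at an adjusted p under 0.05, 7 of the 10 genes rose, 2 fell and 1 did not pass. This test called 61.6% of all 20734 tested genes, 31.0% as higher and 30.7% as lower, and the 10 genes are read against these shares. The shares are larger among better expressed genes. With a filter of 1 CPM in 3 libraries, 5693 of 15675 genes were called higher and 5670 lower, and the 10 genes again gave 7 and 2. Against a change of 1.5-fold, 4 of the 10 genes rose and 0 fell by edgeR, where 5.98% of all tested genes were called higher and 7.52% lower by that rule. At an unadjusted p under 0.05, 1 of the 10 genes (SHMT1) was lower against 1.5-fold by edgeR. The share of all genes under that unadjusted rule was not counted. Against 1.5-fold DESeq2 called 0 of the 10 genes lower, and 984 among all genes. It fitted 37981 genes, of which 26198 received an adjusted p in its test without a fold limit. The number that received one against 1.5-fold was not counted. The median log2 fold change was 0.43 over the 10 genes and 0.0057 over all tested genes. The 3 GNF5 values lay above the 3 DMSO values for 7 of the genes and below them for 2, where 33.1% and 32.8% of all tested genes did so.

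**Figure D1:**
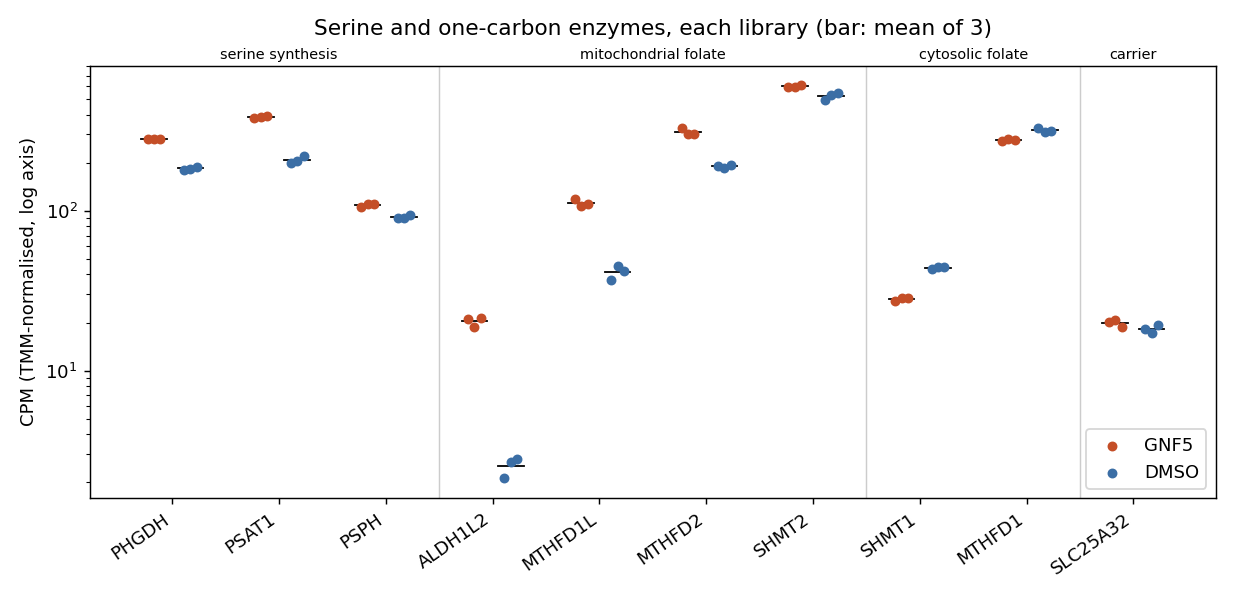
TMM-normalised CPM of each gene in each library on a log axis, with GNF5 libraries in orange on the left of each pair, DMSO libraries in blue on the right and a bar at the mean of 3. The points of the serine synthesis and mitochondrial genes lie higher with GNF5, those of SHMT1 and MTHFD1 lie lower, and the points of SLC25A32 overlap.

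Library depth ran from 46148701 to 58771023 counts with GNF5 and from 56467189 to 60697602 with DMSO, so that 3 counts correspond to 0.0494 to 0.065 CPM. CPM values are TMM-normalised, log2 fold changes compare GNF5 with DMSO and carry a standard error (SE), and intervals are 95% intervals of the fitted fold change. Mitochondrially encoded genes took 7.88% to 8.66% of counts with GNF5 and 6.93% to 7.495% with DMSO. The neuroendocrine markers INSM1, CHGA, SYP and NCAM1 were all present, with summed levels of 2572 to 2657 CPM in GNF5 libraries and 2275 to 2348 CPM in DMSO libraries. Of these, NCAM1 rose 1.51-fold (edgeR adjusted p = 1.45e-15), SYP fell to 0.827 times its DMSO level (edgeR adjusted p = 3.87e-07), and INSM1 and CHGA did not pass. Of 5 fibroblast markers, COL3A1 had 0 counts and DCN 48 in all libraries together, and their sum, 64.6 to 72.3 CPM with GNF5 and 119.5 to 124.9 CPM with DMSO, was carried by COL1A2. COL1A1 went the other way, at 5.28 ± 0.356 CPM with GNF5 and 2.89 ± 0.160 CPM with DMSO (edgeR adjusted p = 1.73e-07). The 5 leukocyte markers summed to 0.170 to 0.572 CPM with GNF5 and 1.56 to 1.80 CPM with DMSO, and the 2 erythroid markers to at most 0.159 CPM in any library. The part of these shifts in the results was not tested. In bulk RNA, a smaller number of cells and less RNA per cell cannot be told apart.

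The serine synthesis genes rose to different degrees. PHGDH, the dehydrogenase of the first step, had 280.5, 281.6 and 280.5 CPM in the GNF5 libraries and 181, 182.3 and 188.8 CPM in the DMSO libraries. The groups did not overlap, and the GNF5 libraries differed from each other by less than the DMSO libraries did. PHGDH (ENSG00000092621, GRCh38 chromosome 1, 119648411 to 119744218) rose by 0.61 ± 0.032 on the log2 scale (edgeR adjusted p = 9.65e-16). At 1.53-fold (interval 1.46 to 1.597) it lay on the 1.5-fold line and did not pass the test against it (edgeR adjusted p = 0.406).

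PSAT1, the aminotransferase that passes an amino group from glutamate to the pathway, had 379.3, 385.5 and 393.3 CPM in the GNF5 libraries and 199.2, 206 and 219.4 CPM in the DMSO libraries. All GNF5 libraries were far above all DMSO libraries. PSAT1 (ENSG00000135069, chromosome 9, 78297125 to 78330093) rose by 0.89 ± 0.035 (edgeR adjusted p = 1.49e-18), and the rise passed the 1.5-fold test (edgeR adjusted p = 4.54e-09). PSPH, the phosphatase that releases serine, had 106.2, 110.1 and 110.3 CPM in the GNF5 libraries and 90.01, 90.6 and 93.4 CPM in the DMSO libraries. The groups were close together without overlapping. PSPH (ENSG00000146733, chromosome 7, 56011051 to 56051604) rose by 0.25 ± 0.036 (edgeR adjusted p = 6.41e-07), a 1.19-fold change.

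The 4 mitochondrial genes rose by different amounts, SHMT2 least and ALDH1L2 most. ALDH1L2, which oxidises formyl folate to carbon dioxide and yields NADPH, had 21.1, 18.8 and 21.2 CPM in the GNF5 libraries and 2.13, 2.68 and 2.79 CPM in the DMSO libraries. Its raw counts were 1240, 874 and 1113 in the GNF5 libraries and 120, 162 and 161 in the DMSO libraries, so it was scarce without GNF5. ALDH1L2 (ENSG00000136010, chromosome 12, 105019784 to 105107643) rose by 3.01 ± 0.095 (edgeR adjusted p = 7.03e-21), an 8.05-fold change with an interval of 7.04 to 9.20. By the size of its rise it stood 46th of 20734 tested genes.

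MTHFD1L, the synthetase that releases formate in mitochondria, had 118.3, 106.8 and 110.3 CPM in the GNF5 libraries and 36.9, 45.1 and 42.1 CPM in the DMSO libraries. Its lowest GNF5 value was far above its highest DMSO value. MTHFD1L (ENSG00000120254, chromosome 6, 150865549 to 151101887) rose by 1.43 ± 0.057 (edgeR adjusted p = 3.60e-14), with an interval of 2.49 to 2.94 for the fold change, and 2.21% of tested genes had a larger fold change.

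MTHFD2, the dehydrogenase and cyclohydrolase that makes formyl folate in mitochondria, had 328.6, 300 and 303.9 CPM in the GNF5 libraries and 190.3, 185.5 and 193.1 CPM in the DMSO libraries. The first GNF5 library was the highest of the 6. MTHFD2 (ENSG00000065911, chromosome 2, 74198610 to 74217565) rose by 0.71 ± 0.036 (edgeR adjusted p = 2.89e-16), or 1.64-fold, and passed the 1.5-fold test (edgeR adjusted p = 0.00134). SHMT2, which splits serine into glycine and a folate-bound carbon, had 597.1, 596.8 and 608 CPM in the GNF5 libraries and 494.5, 526.7 and 547 CPM in the DMSO libraries. The DMSO libraries were spread more widely than the GNF5 libraries but stayed below them. SHMT2 (ENSG00000182199, chromosome 12, 57229573 to 57234935) rose by 0.20 ± 0.035 (edgeR adjusted p = 1.21e-05), or 1.15-fold.

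The cytosolic genes moved the other way. SHMT1, the cytosolic counterpart of SHMT2, had 27.3, 28.7 and 28.3 CPM in the GNF5 libraries and 43.4, 44.8 and 44.2 CPM in the DMSO libraries. The groups were tight and well apart. SHMT1 (ENSG00000176974, chromosome 17, 18327860 to 18363563) fell by 0.65 (log2; interval 0.596 to 0.680 times the DMSO level, SE 0.046, edgeR adjusted p = 7.05e-13), and the fall did not pass the 1.5-fold test (edgeR adjusted p = 0.147). MTHFD1, a cytosolic enzyme that joins the reactions of MTHFD2 and MTHFD1L in 1 protein, had 273.4, 280.8 and 279.1 CPM in the GNF5 libraries and 329.7, 309.4 and 316.2 CPM in the DMSO libraries. Every GNF5 library was below every DMSO library. MTHFD1 (ENSG00000100714, chromosome 14, 64388031 to 64463457) fell by 0.20 (SE 0.033, edgeR adjusted p = 6.85e-06), to 0.872 times its DMSO level.

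SLC25A32, the carrier that brings folate into mitochondria, had 20.3, 20.7 and 18.6 CPM in the GNF5 libraries and 18.3, 17.2 and 19.2 CPM in the DMSO libraries. The groups overlapped, and the log2 difference of 0.12 ± 0.063 did not pass (edgeR adjusted p = 0.0874, interval 0.997 to 1.19-fold). Without the third GNF5 library it passed (0.17 ± 0.069, edgeR adjusted p = 0.0395), and over all alternatives its adjusted p ran from 0.0395 to 0.369. SLC25A32 (ENSG00000164933, chromosome 8, 103398635 to 103415189) shares 69.7% of its exon bases with another gene model on the same strand, ENSG00000285982, which had 43 counts in all libraries. Fragments that fall on shared bases are not counted for either gene, so its level is understated and its change rests on the remaining bases.

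**Figure D2:**
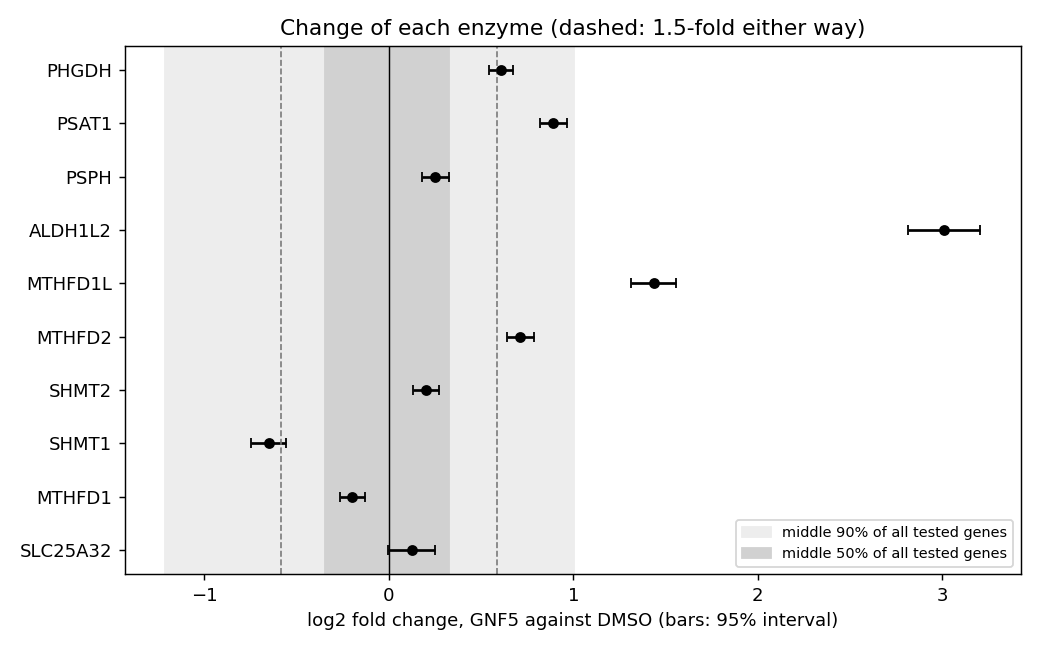
Log2 fold change of each gene, GNF5 against DMSO, with 95% intervals; dashed lines mark 1.5-fold either way and grey bands hold the central parts of all tested genes, from -0.35 to 0.33 and from -1.21 to 1.004. ALDH1L2 (3.01) and MTHFD1L (1.43) lie beyond the wider band, and PSPH, SHMT2, MTHFD1 and SLC25A32 lie within the narrower one.

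Replicates of a gene differed by a coefficient of variation of 0.232% (PHGDH with GNF5) to 14.1% (ALDH1L2 with DMSO). Within the DMSO group the first library was the lowest for 7 of the 10 genes, the second for 3 and the third for 0. The matching shares over all tested genes were not counted, so this cannot be read as a trait of these genes. Pseudogenes that carry these symbols took few of the counted fragments. Multi-mapped fragments were left out, so these counts do not show how many fragments a member lost to a near-identical copy. The 7 MTHFD2 pseudogenes held 0.972% as many counts as MTHFD2 itself, the 4 of PSAT1 0.170%, and those of MTHFD1, PSPH and SHMT1 at most 0.241%. Apart from SLC25A32, SHMT1 shared 1.0% of its exon bases with a same-strand gene model and the other members shared none. Genes on the opposite strand cover 33.6% of the exon bases of MTHFD2 and 15.7% of those of MTHFD1, and the deposited counts were made by strand.

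To compare levels between genes, counts were divided by exon length and scaled to transcripts per 1000000 (TPM). In GNF5 cells PSAT1 was the most abundant at 579.6 ± 6.23 TPM, followed by SHMT2 (433.3 ± 4.52), MTHFD2 (213.6 ± 13.0), PSPH (130.6 ± 1.45) and PHGDH (101.3 ± 0.989), each apart from its neighbour by more than the replicate spread. MTHFD1 (75.4 ± 0.347 TPM) and MTHFD1L (73.8 ± 4.62 TPM) did not differ beyond their spread with GNF5, and SLC25A32 (18.004 ± 1.06), SHMT1 (12.8 ± 0.193) and ALDH1L2 (7.12 ± 0.507) came last. The place of SLC25A32 is uncertain, since its counts come from the unshared part of its exons and were divided by their full length. In DMSO cells SHMT2 led at 376.2 ± 17.5 TPM, before PSAT1 (311.9 ± 13.9), MTHFD2 (130 ± 2.28), PSPH (109.3 ± 1.66), MTHFD1 (86.2 ± 2.98), PHGDH (66.2 ± 1.17), MTHFD1L (27.2 ± 2.69), SHMT1 (20.0 ± 0.306), SLC25A32 (16.5 ± 0.865) and ALDH1L2 (0.881 ± 0.121), again each apart from its neighbour by more than the replicate spread. The deposited lengths join all annotated exons of a gene, 12208 bases for MTHFD1 and 9187 for PHGDH, and so lower the TPM of genes with many rare exons. With the median length of GENCODE basic protein-coding transcripts, a setting chosen after seeing the data, SHMT2 led in both groups, at 573.9 ± 3.28 TPM with GNF5 and 492.3 ± 24.5 TPM with DMSO, and PHGDH followed SHMT2, PSAT1 and MTHFD2 in both, at 286 ± 1.84 TPM with GNF5 and 184.7 ± 3.52 TPM with DMSO. By that length MTHFD1 (106.999 ± 1.23 TPM) and MTHFD1L (64.6 ± 3.596 TPM) were apart by more than their spread with GNF5. SHMT1 then stood above SLC25A32 with GNF5 (26.3 ± 0.582 and 13.2 ± 0.779 TPM), and above MTHFD1L with DMSO (40.7 ± 0.822 and 23.6 ± 2.44 TPM).

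In the 3 pairs taken, the ratio of a mitochondrial gene to its cytosolic counterpart was larger in every GNF5 library than in any DMSO library. No ratio was taken for MTHFD2L, which fell. The ratio of SHMT2 to SHMT1 in TPM was 34.7, 33.0 and 34.0 in the GNF5 libraries and 18.1, 18.7 and 19.6 in the DMSO libraries, a 1.81-fold difference. For MTHFD2 to MTHFD1 the ratio was 3.04, 2.71 and 2.76 with GNF5 and 1.46, 1.52 and 1.55 with DMSO, a 1.88-fold difference. The ratio of MTHFD1L to MTHFD1 was 1.05, 0.925 and 0.961 with GNF5 and 0.272, 0.354 and 0.323 with DMSO, a 3.11-fold difference. In each ratio the groups were apart by more than their spread, and the numerator rose while the denominator fell. Since the groups did not overlap for any of these genes, the separation of the ratios follows from the single genes and adds no further evidence. The ratios of MTHFD2 and of MTHFD1L also share the denominator MTHFD1. Another gene length rescales a ratio in all libraries alike and leaves the fold difference as it is. With the transcript length the mean ratio of SHMT2 to SHMT1 was 21.8 with GNF5 and 12.1 with DMSO, that of MTHFD1L to MTHFD1 was 0.604 with GNF5 and 0.195 with DMSO, and that of MTHFD2 to MTHFD1 was 2.99 with GNF5 and 1.59 with DMSO. Summed TPM was 811.5 ± 6.30 with GNF5 and 487.4 ± 16.7 with DMSO for the 3 serine synthesis genes, 727.8 ± 21.1 with GNF5 and 534.4 ± 19.5 with DMSO for the 4 mitochondrial genes, and 88.1 ± 0.526 with GNF5 and 106.3 ± 2.72 with DMSO for the 2 cytosolic genes.

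**Figure D3:**
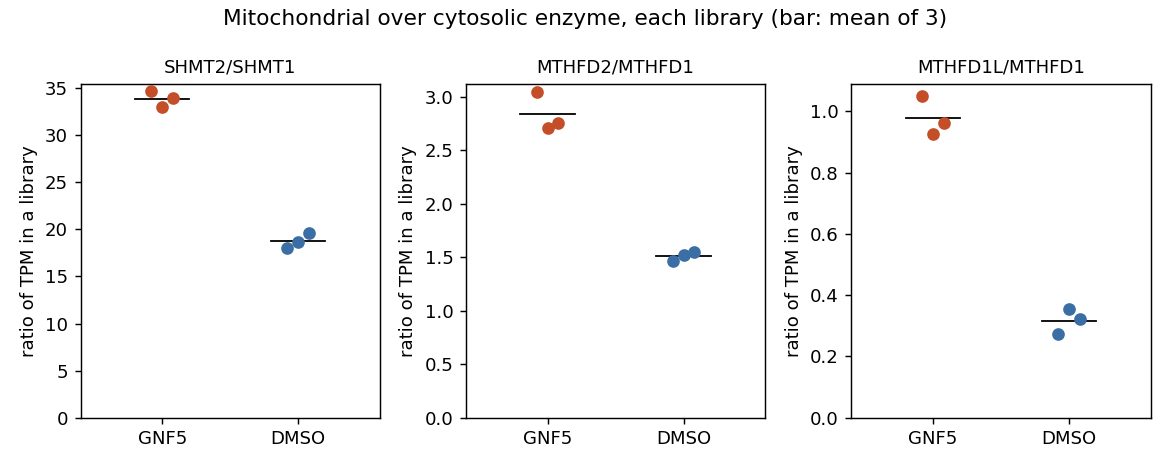
Ratio of TPM of a mitochondrial enzyme gene to its cytosolic counterpart in each library, GNF5 on the left and DMSO on the right, with a bar at the mean of 3. The SHMT2 to SHMT1 ratio lies between 33.0 and 34.7 with GNF5 and between 18.1 and 19.6 with DMSO, and the other ratios are likewise higher with GNF5.

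Promoter sequence was at hand for 6 of the 10 genes, from RefSeq on GRCh38.p14, as 250 bases before and 50 after each annotated start. They were searched on both strands for TGATGNAA, the core of the composite element bound by ATF4 with C/EBP factors, and for CACGTG, the E-box bound by MYC-family factors; the 2 motifs can share the letters TG, and no matches overlapped in these genes. TGATGNAA was in 3.62% and CACGTG in 7.26% of all 35116 promoters of this length in the table. Counted by gene over all its listed starts, they were in 4.46% and 8.77% of 27305 genes. Among the 6 genes, 1 held TGATGNAA and 2 held CACGTG. The 4 sequences below are shown because they set the gene holding both motifs beside a gene of the opposite direction with an E-box, and beside the gene of the largest rise and the gene that fell among those with no match. Capitals mark the matches, and each run is on the strand of its gene.
MTHFD1L (rose, chr6:150866236-150866535, plus strand): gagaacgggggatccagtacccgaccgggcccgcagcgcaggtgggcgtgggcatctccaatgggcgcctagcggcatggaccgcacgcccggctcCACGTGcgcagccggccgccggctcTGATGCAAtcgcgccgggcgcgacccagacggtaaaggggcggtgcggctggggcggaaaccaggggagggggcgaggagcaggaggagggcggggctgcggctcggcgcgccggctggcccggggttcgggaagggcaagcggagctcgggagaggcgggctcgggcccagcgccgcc
MTHFD1 (fell, chr14:64388103-64388402, plus strand): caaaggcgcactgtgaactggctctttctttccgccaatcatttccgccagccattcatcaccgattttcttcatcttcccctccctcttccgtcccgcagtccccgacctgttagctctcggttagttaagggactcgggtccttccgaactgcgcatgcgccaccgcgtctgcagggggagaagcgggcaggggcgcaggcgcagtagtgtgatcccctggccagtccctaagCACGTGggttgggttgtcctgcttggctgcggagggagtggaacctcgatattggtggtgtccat
PSAT1 (rose, chr9:78296875-78297174, plus strand): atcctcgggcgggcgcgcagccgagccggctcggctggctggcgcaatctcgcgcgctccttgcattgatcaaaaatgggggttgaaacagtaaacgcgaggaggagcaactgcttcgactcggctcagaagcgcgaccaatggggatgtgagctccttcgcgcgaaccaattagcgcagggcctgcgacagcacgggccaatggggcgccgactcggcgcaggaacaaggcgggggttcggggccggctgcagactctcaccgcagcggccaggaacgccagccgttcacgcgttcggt
SHMT1 (fell, chr17:18363501-18363800, minus strand): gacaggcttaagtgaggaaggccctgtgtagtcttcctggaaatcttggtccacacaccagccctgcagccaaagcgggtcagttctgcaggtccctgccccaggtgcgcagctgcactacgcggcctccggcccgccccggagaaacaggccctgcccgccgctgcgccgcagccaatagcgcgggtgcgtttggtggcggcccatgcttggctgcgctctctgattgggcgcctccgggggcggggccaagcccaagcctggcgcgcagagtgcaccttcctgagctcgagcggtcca
In MTHFD1L the matches lie inside the window shown, where TGATGCAA begins 129 bases and CACGTG 154 bases before the annotated start site. Of the 4 start sites listed for this gene, 3 have overlapping windows that hold this same pair. Only for the second of these windows does its end lie in the GENCODE transcripts of the gene. This was not so for the window shown, nor for that of PSAT1. At the second of these 3 start sites, TGATGCAA begins at base 25 after the start and CACGTG 1 base before it. At the third they begin 90 and 115 bases before it. In MTHFD1 the CACGTG begins 15 bases before the start. PSAT1, SHMT1, PHGDH and MTHFD2 had no match in these windows, which says only that these letters are not there.

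Of the factors, ATF4 averaged 738.6 ± 5.62 CPM in GNF5 cells and 382 ± 7.02 CPM in DMSO cells (SD, n = 3 each), which was a rise of 0.95 ± 0.031 on the log2 scale (edgeR adjusted p = 2.15e-20). MYCN, which is amplified in this line, rose by 0.64 ± 0.034 (edgeR adjusted p = 1.01e-15). NFE2L2, which encodes NRF2, rose by 0.18 ± 0.039 (edgeR adjusted p = 0.00018). MYC was scarce, at 2.01 ± 0.213 CPM with GNF5 and 2.26 ± 0.046 CPM with DMSO, and did not pass (edgeR adjusted p = 0.334).

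Other genes of the pathway went both ways. Of 32 counted here, 28 were tested, of which 12 rose and 9 fell, 42.9% and 32.1% of those tested, against 31.0% and 30.7% of all genes. Their median log2 fold change was -0.0021. Against 1.5-fold, 3 rose and 1, GLDC, fell, where 5.98% of all genes were called higher and 7.52% lower. GLDC passed that rule narrowly (edgeR adjusted p = 0.0336) and lost it with DESeq2 (adjusted p = 0.692), with no expression filter (edgeR adjusted p = 0.0629), and without any 1 of GNF5 libraries 1 and 3 and DMSO libraries 1 and 3 (edgeR adjusted p from 0.0646 to 0.120). AMT, ALDH1L1, FTCD and SDS were too low to test, with 28, 8, 18 and 1 counts over all libraries. ALDH1L1 is the cytosolic counterpart of ALDH1L2.

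Genes that carry or use serine were mostly higher, 6 of 7 tested where 31.0% of all genes were, with SFXN1, a mitochondrial serine importer, lower (-0.24 ± 0.035). SLC1A5, which takes up neutral amino acids such as glutamine and serine, had 185.6, 189.2 and 193.2 CPM with GNF5 and 41.1, 43.8 and 45.0 CPM with DMSO. This was a 4.37-fold rise (edgeR adjusted p = 4.83e-26), a larger fold than that of any member except ALDH1L2. SLC1A4, a related carrier, rose by 0.51 ± 0.039 (edgeR adjusted p = 3.29e-12).

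In the methionine cycle and transsulfuration 3 of 7 genes rose and 2 fell, 42.9% and 28.6%, against 31.0% and 30.7% of all tested genes. CTH, which releases cysteine from cystathionine, had 26.6 ± 1.08 CPM with GNF5 and 9.72 ± 0.514 CPM with DMSO, a rise of 1.45 ± 0.064 on the log2 scale (edgeR adjusted p = 1.92e-17). CBS, the enzyme before it, was at 0.06 ± 0.255 (edgeR adjusted p = 0.868), at 11.4 ± 1.16 CPM in GNF5 libraries and 10.9 ± 3.46 CPM in the more widely spread DMSO libraries. Without DMSO library 2 CBS passed the test, at 0.34 ± 0.092 (edgeR adjusted p = 0.00223), and without any 1 of GNF5 library 3 and DMSO libraries 1 and 3 its sign turned. CBS has a near-identical copy, so its value is uncertain.

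Among 8 tested genes of folate uptake, storage and recycling, 0 rose and 4 fell by edgeR, where 31.0% of all tested genes rose and 30.7% fell. At an unadjusted p under 0.05 edgeR had 0 of them higher, and the share of all genes under that rule was not counted. DESeq2 called 0 of the list higher, and 5798 of the 26198 genes to which it gave an adjusted p. The folate importer SLC46A1 had 70.5, 77.0 and 72.2 CPM with GNF5 and 99.2, 94.7 and 99.2 CPM with DMSO. Its groups did not overlap, and it fell by 0.42 on the log2 scale (SE 0.040, edgeR adjusted p = 4.19e-10). MTHFD2L, the isozyme of MTHFD2, was at 10.3 ± 0.493 CPM with GNF5 and 12.4 ± 0.353 CPM with DMSO and fell by 0.27 (SE 0.074, edgeR adjusted p = 0.0025), against the rise of MTHFD2. Of the glycine cleavage genes, GLDC was scarce and fell (0.967 ± 0.022 CPM with GNF5 and 1.94 ± 0.242 CPM with DMSO, edgeR adjusted p = 3.48e-05). GART and ATIC, purine enzymes that consume formyl folate, rose by 0.08 ± 0.031 and 0.33 ± 0.041. GART lost its call with upper-quartile factors (edgeR adjusted p = 0.108) and without any 1 of GNF5 library 3 and DMSO libraries 2 and 3 (edgeR adjusted p from 0.0531 to 0.0966).

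**Figure D4:**
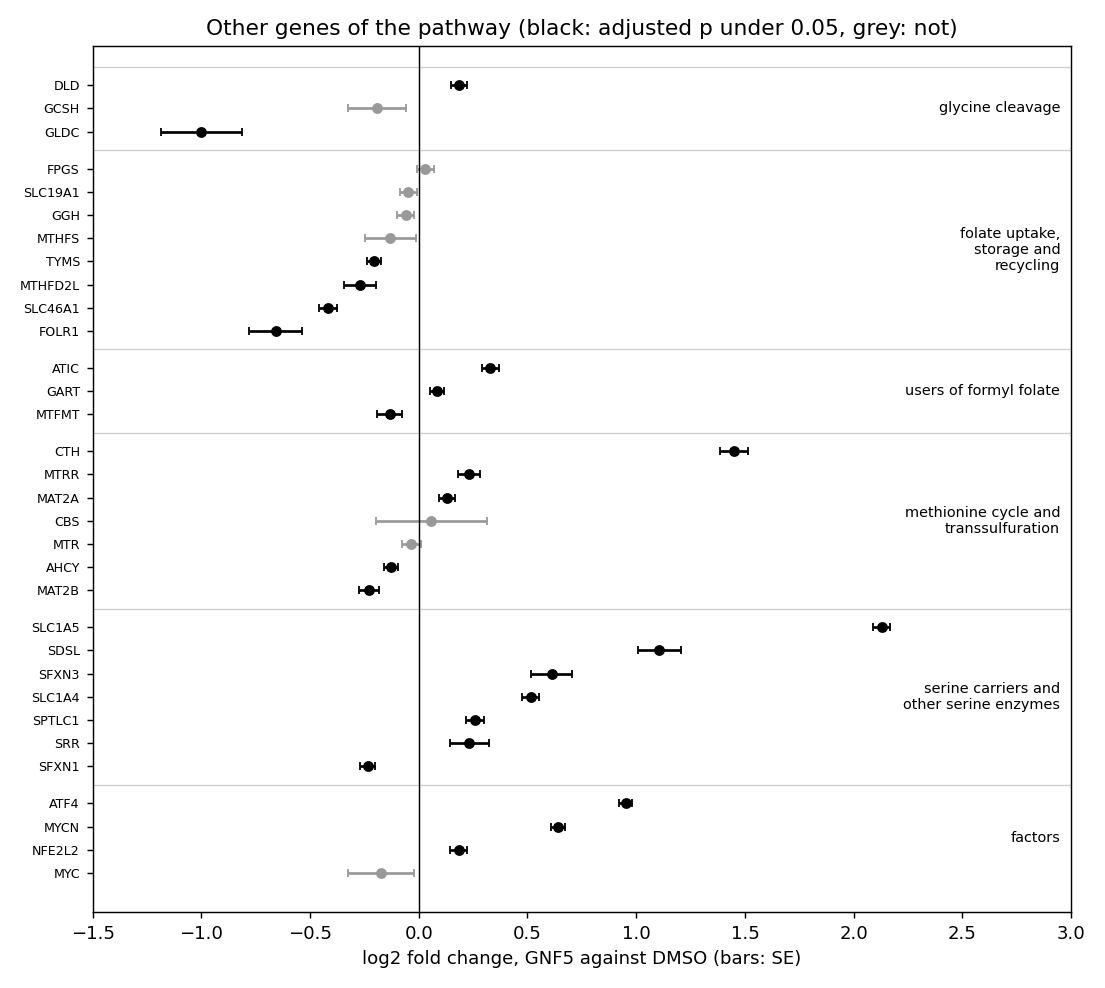
Log2 fold changes, GNF5 against DMSO, with SE, of the other tested genes of the pathway by list, black where the adjusted p is under 0.05 and grey where it is not. SLC1A5 (2.13) and CTH (1.45) lie furthest to the right, and GLDC lies furthest to the left.

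The genes outside the set whose centred log2 profile over the 6 libraries lay closest to the mean profile of the 7 genes that rose were CARS1, ATF6, IL17RC, CACNA1H and UNC5B, of 11799 candidates. Their root mean square distances were 0.0133, 0.0205, 0.0219, 0.0227 and 0.0236 on the log2 scale. Their log2 fold changes ran from 0.96 (CACNA1H) to 1.017 (IL17RC), and with 2 groups such a likeness cannot be told apart from an equal size of change. Candidates had a mean log2 CPM of at least 1 and no symbol shaped like that of a clone or pseudogene. That shape also dropped coding genes whose symbol ends in P and a number. The 7 averaged genes themselves ran from 0.20 (SHMT2) to 3.01 (ALDH1L2), so their mean need not match any 1 of them.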

How the data were processed

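RNA from 3 GNF5 and 3 DMSO samples of NCI-H69 was sequenced, with groups taken from the treatment labels and replicate numbers from the titles. Per the file headers, the authors made raw counts per gene with featureCounts 1.6.1, on read pairs, reverse-stranded, over exons, using GRCh38 genes of Ensembl release 101, with shared and multi-mapped fragments left out by default. The submitters' processing notes list GRCh37, DESeq2, HTSeq, STAR and Trim Galore without roles or versions; where these differ, the headers were followed, and the build of the alignment is not settled.

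From these counts, edgeR 4.0.16 in R 4.3.3 fitted the robust quasi-likelihood model with TMM factors and no covariate over all 20734 genes kept by its default filter, with Benjamini-Hochberg adjustment over all of them. The 1.5-fold rule used glmTreat. SE is the size of a log2 fold change divided by the square root of its F statistic. Symbols were matched by ID for 60401 of 60671 rows. The fits were tested on simulated data. Intervals and the floor of 3 counts cover counting or replicate error only. Replicates were distinct beyond counting noise in each pairwise test (chi-square per degree of freedom from 3.18 to 8.76).

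The genes and lists were chosen with earlier results of these data known. Besides the 10 genes, the rule named the 3 called pathway genes with the lowest p in each direction, the factors, and the 5 genes closest in profile; some listed pathway and marker genes, among them some that the rule named, are not reported here and are left out of the list counts and sums; MTHFD2L, GLDC, GART, ATIC, CBS, SFXN1 and the untested genes were named after their values were seen. Alternatives were DESeq2 1.42.0 and its size factors, upper-quartile factors, no filter, a stricter filter, a non-robust fit, the replicate number as a block, and leaving out each library.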

Additional observations from a re-analysis of the deposited data

How the results depend on the processing

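Over 13 alternatives, 129 of 130 fold changes of the 10 genes kept their direction and their side of the threshold. The exception was SLC25A32, which passed without the third GNF5 library (adjusted p = 0.0395 by edgeR). The counts of 7 higher and 2 lower genes became 8 and 2 in that setting and stayed at 7 and 2 in the others, and PSAT1, MTHFD2, MTHFD1L and ALDH1L2 passed the 1.5-fold rule in all 14 settings. Over all genes, DESeq2 called 780 higher and 984 lower against 1.5-fold, where edgeR called 1240 and 1560. Same-numbered GNF5 and DMSO libraries did not deviate together (correlations -0.016, 0.016 and 0.00082), and with the replicate block the 10 genes again gave 7 higher and 2 lower. Of 247 values of the 19 other named genes with a test, 239 kept direction and side, and the exceptions were 4 each of GART and CBS. GART was not called with upper-quartile factors (log2 fold change 0.058) or without GNF5 library 3 or DMSO library 2 or 3, and over those 3 settings it ran from 0.069 to 0.086. CBS, not called, was at -0.02 without GNF5 library 3, -0.079 without DMSO library 1 and -0.068 without DMSO library 3, and at 0.34 and called without DMSO library 2. At these depths ALDH1L2 in DMSO cells, with 120 to 162 counts, is the least precise level among the 10 genes.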
